A study of Homo sapiens with 8 samples.

Results

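The genes described here are 10 inflammatory genes that are commonly listed as targets of the transcription factor NF-kB, as mRNAs with AU-rich elements or as outputs of the kinase MK2. They were taken by gene name from a table of 58735 genes, and all 10 were found. They are the chemokine genes CXCL8, CXCL1, CXCL2, CXCL3 and CXCL16, the cytokine genes IL18 and IL32, the NF-kB feedback genes TNFAIP3 and NFKBIA, and PTGS2, which encodes the inducible cyclooxygenase COX-2. CXCL16, IL18, IL32, TNFAIP3 and NFKBIA, 5 of the 10, had at least 1 FPKM (fragments per kilobase of exon, scaled to library size) in at least 2 libraries and were tested. CXCL8, CXCL1, CXCL2, CXCL3 and PTGS2 did not reach 1 FPKM in any of the 8 libraries and were too low to judge.

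All libraries came from HCT116, a human colorectal carcinoma cell line, and each of the 4 groups has 2 libraries. Cells with a control shRNA (a short hairpin RNA) grew for 24 h in DMEM with 0 mM glucose. MAPKAPK2 shRNA 1 and MAPKAPK2 shRNA 2 target the gene of MK2, and both were expressed at 20 mM glucose; the labels give no culture time for them. The reference for all of these is the control shRNA at 20 mM glucose for 24 h, so the comparisons with it share its 2 libraries. Whether the libraries of a group came from separate cultures is not given in the labels, so the p-values measure the spread between these libraries, and that spread may be technical.

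The libraries held 14252316 to 19975449 reads in genes. The spread within groups exceeded counting error: the chi-square per gene between the 2 libraries was 10.4 at 0 mM glucose, 6.42 with shRNA 1, 26.7 with shRNA 2 and 5.58 in the controls at 20 mM. MAPKAPK2 mRNA averaged 2.66 FPKM with shRNA 1 and 0.891 FPKM with shRNA 2, against 16.3 FPKM in the 20 mM controls. Of the 7 epithelial markers searched, 6 reached 1 FPKM, while 0 of 7 leukocyte and 0 of 4 endothelial markers did. Of 5 fibroblast markers, COL1A1 reached 1 FPKM, and DCN was at 0 in every library.

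In resting cells NF-kB is held in the cytoplasm by inhibitors such as IkB-alpha, the product of NFKBIA. When IKK kinases mark the inhibitor for destruction, NF-kB enters the nucleus and switches on chemokine and cytokine genes together with its own inhibitors NFKBIA and TNFAIP3. Many of the resulting mRNAs carry AU-rich elements in the 3′ untranslated region, to which the protein ZFP36 (tristetraprolin) binds and brings decay enzymes. MK2, activated by p38 kinases, phosphorylates ZFP36 and thereby slows that decay in activated macrophages and other cells.

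The AU-rich pentamer is the sequence feature by which these mRNAs are grouped, so the 30 bases with most pentamers are shown for each gene that has any, on the mRNA strand in GRCh38 as annotated by GENCODE 29, with each ATTTA in capitals. All lie in the 3′ untranslated region of the gene's principal transcript.
CXCL8, chr4:73743111-73743140, plus strand: cctATTTAttATTTAtgtATTTATTTAagc
CXCL1, chr4:73870673-73870702, plus strand: aagtcttctATTTATTTATTTAttcattag
CXCL2, chr4:74097586-74097615, minus strand: cttctATTTATTTATTTATTTATTTAtttg
CXCL3, chr4:74037082-74037111, minus strand: gttctacttATTTAtgtATTTAtttttgaa
PTGS2, chr1:186674317-186674346, minus strand: aatgatcatATTTATTTATTTAtatgaacc
NFKBIA, chr14:35401910-35401939, minus strand: aaaagaagaaaaaATTTAaagggtgtactt
TNFAIP3, chr6:137882297-137882326, plus strand: tgtaattcactttATTTAttttattacaaa
CXCL16, chr17:4734291-4734320, minus strand: tcttaggcccctcATTTAaaaacggttata

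Pentamers were present in 8 of the 10 genes and were densest in the 5 that were too low to judge. CXCL2 had 10 pentamers in 721 bases, or 13.9 per kb, and CXCL3 had 7 in 673 bases, or 10.4 per kb. PTGS2 had the most, with 22 in 2562 bases, or 8.59 per kb. CXCL8 followed with 9 in 1252 bases (7.19 per kb) and CXCL1 with 5 in 706 bases (7.08 per kb). For scale, 68.9% of the 11309 tested protein-coding genes with an annotated 3′ untranslated region had at least 1 pentamer, with a median of 1.55 per kb and a 90th percentile of 4.81 per kb. All 5 low genes stood above that 90th percentile, at percentiles 96.7 (CXCL1) to 99.5 (CXCL2).

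Among the 5 tested genes the density was mixed. NFKBIA had 3 pentamers in 502 bases, or 5.98 per kb, at percentile 94.2, and TNFAIP3 had 5 in 1992 bases, or 2.51 per kb. CXCL16 had 1 in 977 bases, or 1.02 per kb, which is under the median of tested genes. IL18 and IL32 had 0 pentamers in 345 and 373 bases, so the description as AU-rich mRNAs was not borne out for these transcripts by this count. The longer nonamer TTATTTATT, counted on the mRNA strand and overlapping the pentamer, was found in 6 of the 10 genes (CXCL8, CXCL1, CXCL2, CXCL3, TNFAIP3 and PTGS2), and in 8.29% of tested protein-coding genes. A match gives the letters only and is not evidence of binding.

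**Figure D1:**
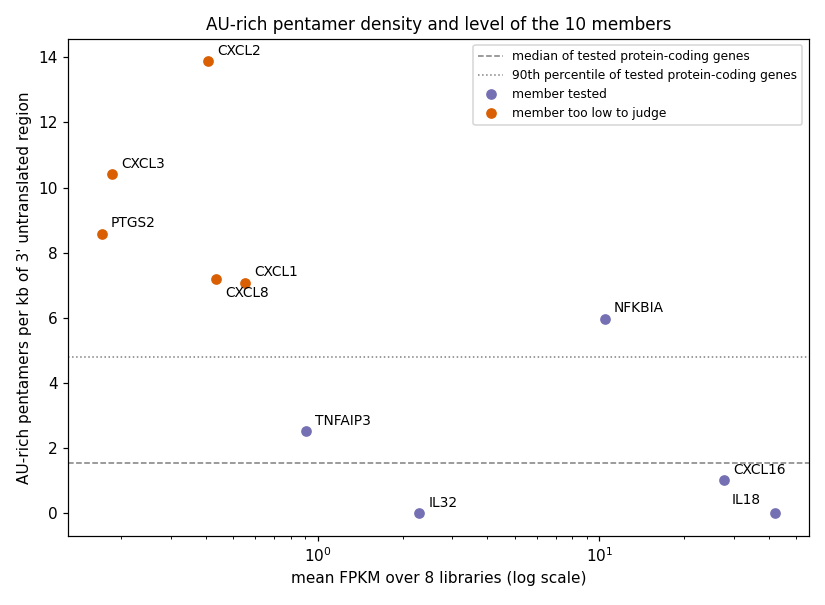
AU-rich pentamers per kb of 3′ untranslated region (vertical axis) against the mean level over the 8 libraries in FPKM (horizontal axis, log scale) for the 10 genes, 1 point each. The 5 genes too low to judge (orange) lie at 7.08 to 13.9 pentamers per kb and the 5 tested genes (purple) at 0 to 5.98; dashed and dotted lines mark the median of 1.55 and the 90th percentile of 4.81 of tested protein-coding genes.

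The promoter letters to which NF-kB dimers bind are shown because they are the other feature the genes are grouped by. RefSeq promoters (GRCh38.p14, from 250 bases before to 50 after the start site) were searched over their whole length on both strands. The search was for a 10-base motif (GGGA, then 4 bases of any kind, then CC) and for GGAATTTCC, which can overlap each other. Windows of 30 bases around a match are shown, with matched letters in capitals.
CXCL8, chr4:73740467-73740496, plus strand: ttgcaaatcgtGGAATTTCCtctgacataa
CXCL1, chr4:73869304-73869333, plus strand: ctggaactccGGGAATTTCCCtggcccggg
CXCL2, chr4:74099254-74099283, minus strand: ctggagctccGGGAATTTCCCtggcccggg
CXCL3, chr4:74038749-74038778, minus strand: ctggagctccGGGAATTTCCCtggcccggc
TNFAIP3, chr6:137867182-137867211, plus strand: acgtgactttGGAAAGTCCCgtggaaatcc
NFKBIA, chr14:35404811-35404840, minus strand: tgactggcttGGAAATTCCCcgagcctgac
IL32, chr16:3065294-3065323, plus strand: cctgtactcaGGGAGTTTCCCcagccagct
PTGS2, chr1:186680628-186680657, minus strand: caggagagtgGGGACTACCCcctctgctcc

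Of the 10 genes, 8 have a promoter in the RefSeq table (all but CXCL16 and IL18), and all 8 held at least 1 match. IL32 has 2 promoters in the table, of which 1 held a match, and the other genes have 1 each. Among all 35116 promoters of the same length, 25.6% held the 10-base motif, 0.461% held GGAATTTCC and 25.8% held either. The matches of CXCL1, CXCL2 and CXCL3 have the same capital letters and are centred at −74, −73 and −74 bases from the start site. That of CXCL8 is centred at −87, that of NFKBIA at −76, that of TNFAIP3 at −62, that of IL32 at −94 and that of PTGS2 at −219. CXCL8, CXCL3 and IL32 each held a further match, of the 10-base motif, that is not shown. Whether any of these letters is used in HCT116 was not tested.

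Levels per length spanned IL18 at the top to PTGS2 at the bottom. Over the 8 libraries the mean level was 42.0 FPKM for IL18, 27.7 FPKM for CXCL16, 10.4 FPKM for NFKBIA, 2.30 FPKM for IL32 and 0.910 FPKM for TNFAIP3. The libraries of IL18 (34.1 to 51.4 FPKM), CXCL16 (22.7 to 33.2 FPKM), NFKBIA (7.20 to 12.3 FPKM), IL32 (1.62 to 3.04 FPKM) and TNFAIP3 (0.690 to 1.40 FPKM) did not overlap, so that order held in every library. IL18 (ENSG00000150782, chr11:112143251-112164117, minus strand, GRCh38) and CXCL16 (ENSG00000161921, chr17:4733526-4739922, minus strand) stood at percentiles 94.6 and 90.7 of the 16239 genes tested. NFKBIA (ENSG00000100906, chr14:35401511-35404749, minus strand) stood at percentile 72.2, IL32 (ENSG00000008517, chr16:3065297-3082192, plus strand) at 33.5 and TNFAIP3 (ENSG00000118503, chr6:137867188-137883312, plus strand) at 10.5. The low genes averaged 0.553 FPKM (CXCL1), 0.436 FPKM (CXCL8), 0.406 FPKM (CXCL2), 0.185 FPKM (CXCL3) and 0.171 FPKM (PTGS2). From TNFAIP3 downward the range of each gene over the libraries overlapped that of the next in this order. Compared within each library, CXCL2 stood above CXCL3 in all 8, and no other of these neighbouring pairs kept its order throughout.

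**Figure D2:**
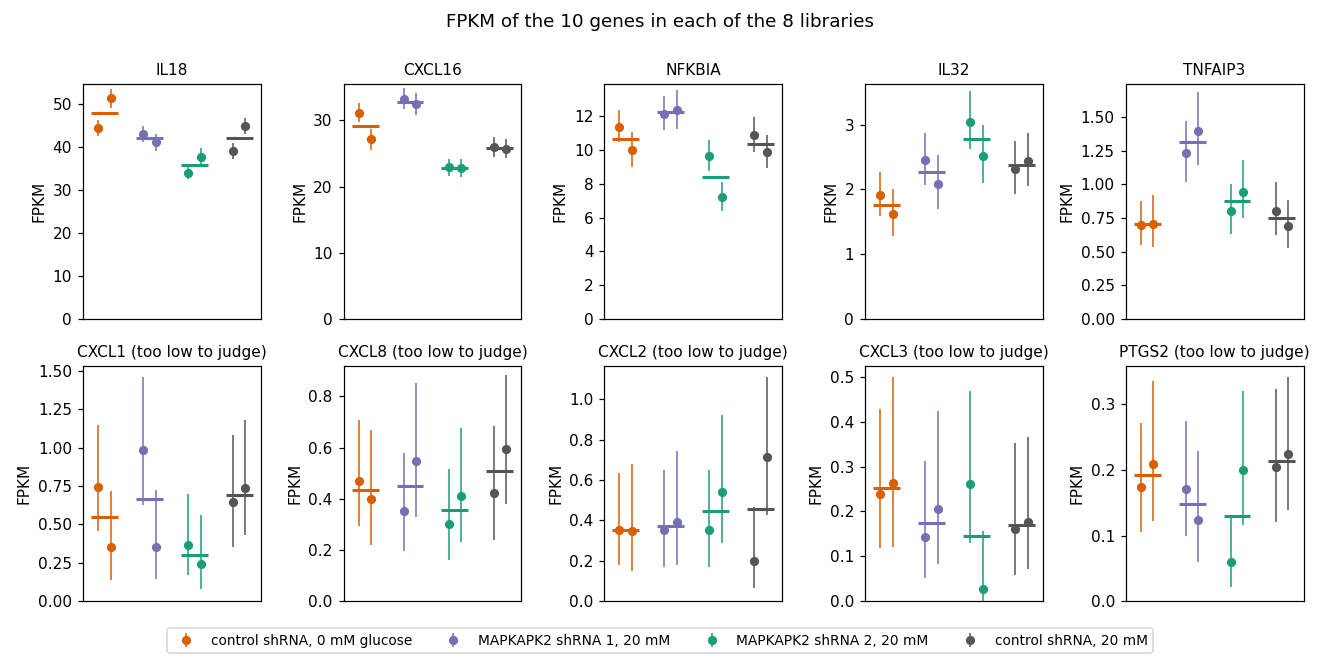
FPKM of the 10 genes (1 panel each, own linear axis from 0) in the 8 libraries, by group in the colours of the legend; points are libraries, vertical bars the exact 95% Poisson interval of the recovered reads (counting error only) and horizontal bars the group mean. CXCL16 with shRNA 1 lies above and with shRNA 2 below the controls, and TNFAIP3 stands highest with shRNA 1.

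The first comparison asked how the levels differ after 24 h without glucose. None of the 5 tested genes passed: limma called 0 of 5, and it also called 0 of all 16239 genes (0%; 1421 had an unadjusted p under 0.05, and limma voom, run on reads recovered from the FPKM, called 28 genes, 0.172%). IL32, which encodes a pro-inflammatory cytokine found in humans but not in rodents, stood lower without glucose, with 1.91 and 1.62 FPKM at 0 mM and 2.31 and 2.43 FPKM at 20 mM. Its libraries did not overlap, and the log2 fold change of FPKM + 1 was −0.29 (SE 0.13, 95% interval −0.61 to 0.03, limma adjusted p = 0.609). CXCL16, a membrane-bound chemokine that is shed from the cell surface, was the other tested gene without overlap, with 31.1 and 27.1 FPKM at 0 mM and 26.0 and 25.7 FPKM at 20 mM. Its log2 fold change was 0.16 (95% interval −0.05 to 0.38, limma adjusted p = 0.685). Separation of this kind occurred in 41.3% of all genes tested, so 2 of 5 is near the background. In bulk RNA of this kind, fewer cells that express a gene and less RNA per cell cannot be told apart.

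IL18, the precursor of an IL-1 family cytokine made by intestinal epithelium, had 44.4 and 51.4 FPKM at 0 mM and 39.2 and 44.9 FPKM at 20 mM. Its groups overlapped, and the log2 fold change was 0.18 (95% interval −0.09 to 0.46, limma adjusted p = 0.723). NFKBIA had 11.4 and 9.97 FPKM at 0 mM and 10.9 and 9.87 FPKM at 20 mM, and its groups overlapped. Its log2 fold change of 0.04 had a 95% interval of −0.30 to 0.37 (limma adjusted p = 0.971). TNFAIP3, which encodes the ubiquitin-editing enzyme A20, had 0.699 and 0.706 FPKM at 0 mM and 0.805 and 0.690 FPKM at 20 mM, with a log2 fold change of −0.04 (95% interval −0.47 to 0.40, limma adjusted p = 0.981). The intervals of all 5 genes include 0, and a p that misses the threshold does not show that the levels are equal.

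With MAPKAPK2 shRNA 1 the chemokine gene CXCL16 rose. It had 33.2 and 32.4 FPKM with shRNA 1, against 26.0 and 25.7 FPKM in the controls, means of 32.8 ± 0.557 and 25.8 ± 0.212 FPKM (SD, n = 2 each) and a ratio of 1.27. Both shRNA 1 libraries lay above both controls, with a log2 fold change of 0.33 (SE 0.09, 95% interval 0.12 to 0.55, limma adjusted p = 0.0443). It was the 1 call among the 5 tested genes, in a comparison that called 19.8% of all genes tested (9.35% higher with shRNA 1 and 10.5% lower). The call was lost without the low-value filter (adjusted p = 0.0598) and without any 1 of the 4 libraries compared (adjusted p = 0.152 to 0.186), while the log2 fold change stayed between 0.32 and 0.44 in all 16 alternatives. CXCL16 shares 3.04% of its exon bases with MED11 on the opposite strand, which was at 2.27 to 4.97 FPKM. The summed level of the 7 leukocyte markers was 0.743 to 1.11 FPKM with shRNA 1 and 0.565 to 0.716 FPKM in the controls, and 0 of the 7 markers reached 1 FPKM. Of these, the monocyte marker CD14 was at 0.648 and 0.520 FPKM with shRNA 1 and 0.190 and 0.447 FPKM in the controls. Its groups did not overlap, and neither did those of 65.7% of all genes tested in this comparison. PTPRC, the common leukocyte antigen gene, was at 0 in both shRNA 1 libraries and at 0.0196 and 0 FPKM in the controls. The part of these markers in the CXCL16 level was not tested.

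TNFAIP3 was the gene with the largest ratio in this comparison. It had 1.23 and 1.40 FPKM with shRNA 1, from 117 and 108 reads, against 0.805 and 0.690 FPKM in the controls, from 68 and 62 reads. The groups did not overlap, and the ratio of mean FPKM was 1.76. On the log2(FPKM + 1) scale, which understates changes of low genes, the fold change was 0.41 (SE 0.18, 95% interval −0.03 to 0.84, limma adjusted p = 0.171) and did not pass. With limma voom on recovered reads, which called 25.5% of all genes tested, the log2 fold change was 0.81 (SE 0.27, adjusted p = 0.0377) and passed, as it did when protein-coding genes alone were fitted (limma adjusted p = 0.0240). TNFAIP3 entered the test only through the 2 shRNA 1 libraries, the only ones in which it reached 1 FPKM, so its place among the tested genes is not independent of this difference. Of its exon bases 1.88% are shared with AL357060.1 on the opposite strand, at 0 to 0.137 FPKM.

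NFKBIA had 12.2 and 12.3 FPKM with shRNA 1, against 10.9 and 9.87 FPKM in the controls. Both libraries with the hairpin lay above the controls, and the log2 fold change of 0.22 did not pass (95% interval −0.11 to 0.55, limma adjusted p = 0.318). IL18 had 43.0 and 41.1 FPKM with shRNA 1 and 39.2 and 44.9 FPKM in the controls, with the shRNA 1 libraries inside the range of the controls (95% interval of the log2 fold change −0.27 to 0.28, limma adjusted p = 0.990). IL32 had 2.45 and 2.08 FPKM with shRNA 1 and 2.31 and 2.43 FPKM in the controls. Its groups overlapped, with a log2 fold change of −0.05 (95% interval −0.37 to 0.27, limma adjusted p = 0.837). In all, 3 of the 5 tested genes (CXCL16, TNFAIP3 and NFKBIA) had groups without overlap, against 65.7% of all genes tested. For TNFAIP3 the limit given above applies.

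The second hairpin, shRNA 2, left less MAPKAPK2 mRNA than shRNA 1 (log2 fold change −0.95, limma adjusted p = 0.00124). None of the 5 tested genes passed with it, in a comparison in which limma called 18.8% of all genes tested, 11.1% higher with shRNA 2 and 7.73% lower (5310 genes had an unadjusted p under 0.05; the voom fit also called 0 of the 5, and 24.2% of all genes). CXCL16 had 22.9 and 22.7 FPKM with shRNA 2, against 26.0 and 25.7 FPKM in the controls, so both hairpin libraries lay below the controls here. Its log2 fold change was −0.17 (SE 0.09, 95% interval −0.39 to 0.04, limma adjusted p = 0.248). NFKBIA had 9.63 and 7.20 FPKM with shRNA 2 and 10.9 and 9.87 FPKM in the controls, also without overlap. The log2 fold change of −0.28 did not pass (95% interval −0.62 to 0.05, limma adjusted p = 0.214), and it rested on which shRNA 2 library was kept: without the first, the higher one, it was −0.47 (limma adjusted p = 0.0408), and without the second it was −0.10 (limma adjusted p = 0.621).

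IL18 had 34.1 and 37.8 FPKM with shRNA 2, against 39.2 and 44.9 FPKM in the controls. Both libraries were lower than both controls, with a log2 fold change of −0.22 (95% interval −0.49 to 0.05, limma adjusted p = 0.242). IL32 had 3.04 and 2.52 FPKM with shRNA 2 and 2.31 and 2.43 FPKM in the controls, with a log2 fold change of 0.16 (95% interval −0.16 to 0.48, limma adjusted p = 0.464) that was 0.06 without the first shRNA 2 library and 0.26 without the second. TNFAIP3 had 0.805 and 0.947 FPKM with shRNA 2 and 0.805 and 0.690 FPKM in the controls, with a log2 fold change of 0.10 (95% interval −0.33 to 0.54, limma adjusted p = 0.750). All 5 tested genes were without overlap here, TNFAIP3 by a margin that vanishes on rounding, and so were 57.4% of all genes tested.

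The hairpins were then compared with each other, since a call with 1 hairpin alone does not show that they differ. CXCL16 and NFKBIA were lower with shRNA 2 than with shRNA 1, the 2 calls among the 5 tested genes, while 22.2% of all genes tested were called (13.0% higher with shRNA 2 and 9.13% lower). For CXCL16 the levels given above average 22.8 ± 0.113 FPKM with shRNA 2 and 32.8 ± 0.557 FPKM with shRNA 1 (SD, n = 2 each), a ratio of 0.695. The log2 fold change was −0.51 (SE 0.09, 95% interval −0.72 to −0.29, limma adjusted p = 0.00997). For NFKBIA the means were 8.42 ± 1.72 FPKM with shRNA 2 and 12.2 ± 0.136 FPKM with shRNA 1, a ratio of 0.687 and a log2 fold change of −0.50 (SE 0.14, 95% interval −0.84 to −0.17, limma adjusted p = 0.0431). Both genes also passed in the voom fit, which called 28.4% of all genes (adjusted p = 0.00450 for CXCL16 and 0.0235 for NFKBIA).

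The CXCL16 difference between hairpins passed in 13 of 16 alternatives and was lost with the 2 groups alone (adjusted p = 0.0546) and without shRNA 1 library 1 (adjusted p = 0.0698) or library 2 (adjusted p = 0.0601). The NFKBIA difference passed in 7 of 16, with log2 fold changes of −0.69 without shRNA 2 library 1 to −0.32 without shRNA 2 library 2, and was lost without the low-value filter (adjusted p = 0.0936), with the 2 groups alone (adjusted p = 0.131) and without any 1 library other than shRNA 2 library 1 (adjusted p = 0.0619 to 0.165). IL18, IL32 and TNFAIP3 did not pass, with log2 fold changes of −0.22 (95% interval −0.49 to 0.05), 0.21 (−0.11 to 0.53) and −0.30 (−0.74 to 0.13). All 5 tested genes were without overlap between the hairpins, against 60.0% of all genes tested. TNFAIP3 entered the test only through its shRNA 1 libraries, so its difference and its lack of overlap here are not independent of the filter. The summed leukocyte markers were at 0.233 to 0.284 FPKM with shRNA 2 and 0.743 to 1.11 FPKM with shRNA 1, and CD14 made up 0.520 to 0.648 FPKM of the shRNA 1 sums. The part of these markers in the difference was not tested.

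**Figure D3:**
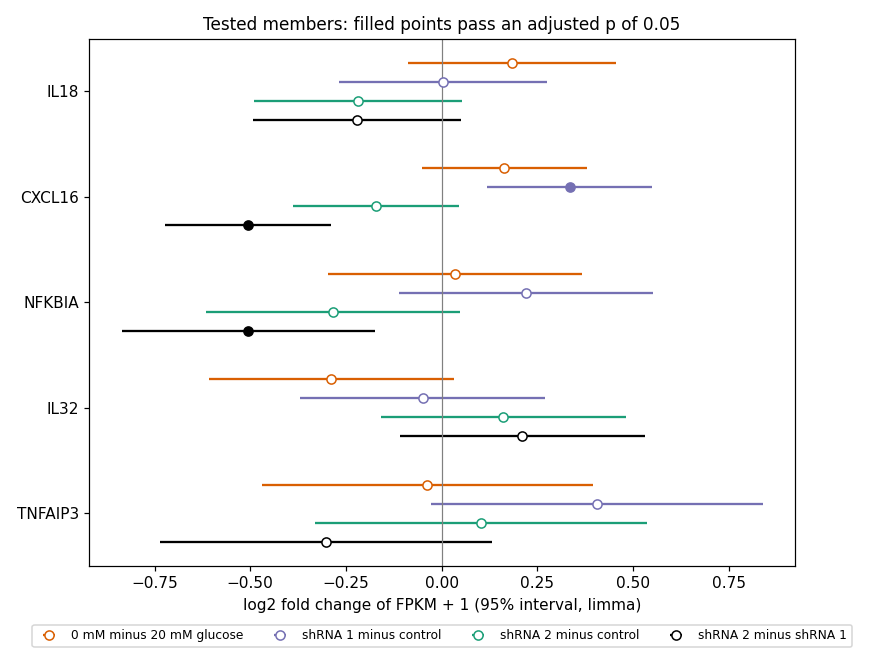
Log2 fold changes of FPKM + 1 of the 5 tested genes (rows, highest level at the top) in the 4 comparisons, in the colours of the legend; bars are 95% intervals from limma and filled points pass an adjusted p of 0.05. The 3 filled points are CXCL16 at 0.33 with shRNA 1 and at −0.51 between hairpins, and NFKBIA at −0.50 between hairpins.

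The neutrophil chemokine genes and PTGS2 were near the limit of detection, with 58 to 138 reads per gene over all 8 libraries. CXCL8 (ENSG00000169429, chr4:73740506-73743716, plus strand), the gene of interleukin-8, had 0.468 and 0.399 FPKM at 0 mM glucose, 0.350 and 0.546 FPKM with shRNA 1, 0.302 and 0.410 FPKM with shRNA 2 and 0.421 and 0.593 FPKM in the 20 mM controls. That is 13 to 24 reads per library, and the ratio of reads to the controls was 0.860 at 0 mM (95% interval 0.533 to 1.38), 0.860 with shRNA 1 (0.528 to 1.39) and 0.690 with shRNA 2 (0.410 to 1.15). These are exact Clopper-Pearson intervals and cover counting error only. Each includes 1, so no difference of CXCL8 was detectable at this depth. Both shRNA 2 libraries of CXCL8 lay below both controls, and 57.4% of all genes tested were without overlap in that comparison.

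CXCL1 (ENSG00000163739, chr4:73869393-73871242, plus strand), whose product also acts through the receptor CXCR2, had 0.746 and 0.350 FPKM at 0 mM glucose, 0.984 and 0.353 FPKM with shRNA 1, 0.367 and 0.240 FPKM with shRNA 2 and 0.646 and 0.737 FPKM in the 20 mM controls. With shRNA 2 it had 14 reads against 31 in the controls, a ratio of 0.445 (95% interval 0.219 to 0.862), and both libraries lay below both controls. Of all genes tested, 57.4% were without overlap in this comparison. The libraries at 0 mM and with shRNA 1 also differed among themselves, with 20 and 7 reads at 0 mM and 24 and 7 reads with shRNA 1. Fitted without the low-value filter, the shRNA 2 change did not pass (log2 fold change −0.38, limma adjusted p = 0.490).

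CXCL2 (ENSG00000081041, chr4:74097035-74099293, minus strand) had 0.354 and 0.346 FPKM at 0 mM glucose, 0.354 and 0.392 FPKM with shRNA 1, 0.352 and 0.538 FPKM with shRNA 2 and 0.199 and 0.712 FPKM in the 20 mM controls. The 2 controls, with 5 and 19 reads, span all other libraries. The ratios of reads to the controls were 0.757 at 0 mM, 0.801 with shRNA 1 and 0.944 with shRNA 2, and each interval included 1. CXCL3 (ENSG00000163734, chr4:74036589-74038807, minus strand) had 0.240 and 0.263 FPKM at 0 mM glucose, 0.144 and 0.206 FPKM with shRNA 1, 0.262 and 0.0280 FPKM with shRNA 2 and 0.162 and 0.177 FPKM in the 20 mM controls. Both 0 mM libraries of CXCL3 lay above both controls, and 41.3% of all genes tested were without overlap in that comparison. One shRNA 2 library held 1 read of CXCL3 and the other held 11. The ratios to the controls were 1.47 at 0 mM, 1.01 with shRNA 1 and 0.910 with shRNA 2, with intervals that included 1. CXCL1, CXCL2 and CXCL3 are close paralogs on chromosome 4, so the assignment of reads among them is uncertain.

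PTGS2 (ENSG00000073756, chr1:186671791-186680427, minus strand) had 0.174 and 0.209 FPKM at 0 mM glucose, 0.171 and 0.124 FPKM with shRNA 1, 0.0601 and 0.200 FPKM with shRNA 2 and 0.204 and 0.224 FPKM in the 20 mM controls. Both hairpins gave values below both controls, and 65.7% (shRNA 1) and 57.4% (shRNA 2) of all genes tested were without overlap. The ratio of reads to the controls was 0.883 at 0 mM (95% interval 0.545 to 1.43), 0.701 with shRNA 1 (0.412 to 1.17) and 0.581 with shRNA 2 (0.331 to 0.998). Its 2 shRNA 2 libraries, with 6 and 17 reads, differed more from each other than the groups did, and the fit without the filter gave limma adjusted p = 0.567 with shRNA 2. None of the 5 low genes passed in that fit in any comparison.

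**Figure D4:**
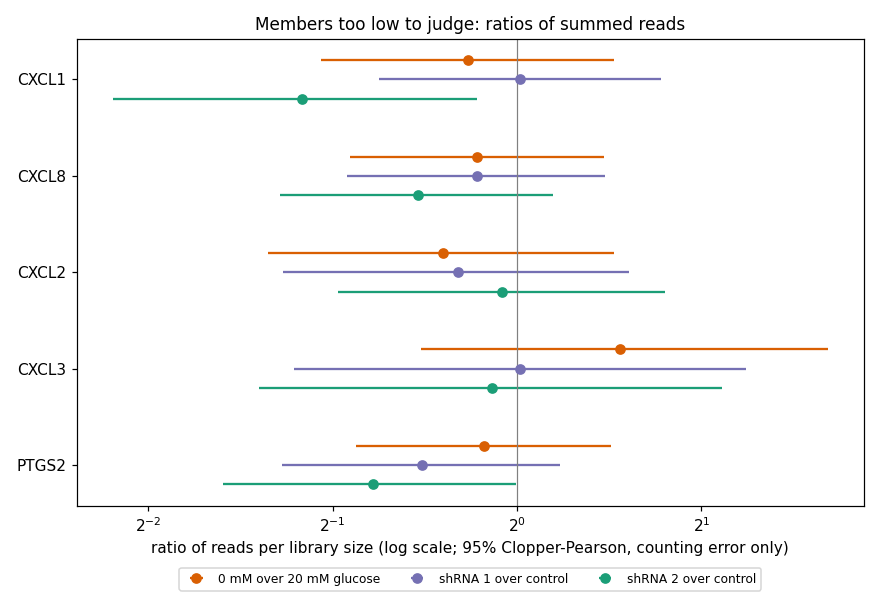
Ratio of summed reads per library size (log axis) of the 5 genes too low to judge, in 0 mM glucose, shRNA 1 and shRNA 2 over the 20 mM controls; bars are exact 95% Clopper-Pearson intervals of the read counts and cover counting error only. All intervals include 1 except those of CXCL1 (0.445) and PTGS2 (0.581) with shRNA 2.

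The surrounding pathway was read from lists of other genes. Of 20 genes of NF-kB subunits, inhibitors and IKK kinases, 19 were tested; 1 rose and 2 fell with shRNA 1, 2 rose and 1 fell with shRNA 2, and between hairpins 8 were higher and 1 lower with shRNA 2. Over all genes tested 19.8% were called with shRNA 1, 18.8% with shRNA 2 and 22.2% between hairpins. In this fit 3 of 19 with either hairpin is near or under that background and 9 of 19 between hairpins is above it. The reading for each hairpin depended on the fit. In the voom fit 2 rose and 6 fell with shRNA 1, and 5 rose and 1 fell with shRNA 2. That fit called 25.5% and 24.2% of all genes tested. Their median log2 fold change was −0.12 with shRNA 1 and 0.11 with shRNA 2, beside −0.01 and 0.01 over all genes tested. A share above 22.2% between hairpins was not particular to this list. Higher and lower with shRNA 2 were 3 and 3 of 13 AU-rich binding genes and 3 and 1 of 8 p38 axis genes. Other NF-kB targets had 2 and 2 of 10, receptors 1 and 0 of 3 and feedback and adaptor genes 3 and 1 of 18. Processing genes had 2 and 0 of 7 and prostaglandin genes 0 and 2 of 7. TAB1 and MAP3K7, which form the TAK1 kinase complex upstream of IKK, fell with shRNA 1. TAB1 averaged 3.94 ± 0.343 FPKM with shRNA 1 and 7.45 ± 0.518 FPKM in the controls (log2 fold change −0.77, limma adjusted p = 0.00488), and MAP3K7 averaged 5.88 FPKM with shRNA 1 and 9.35 FPKM in the controls (−0.59, limma adjusted p = 0.0276). Neither fell with shRNA 2, where TAB1 averaged 8.10 FPKM (0.11, limma adjusted p = 0.545) and MAP3K7 12.3 FPKM (0.35, limma adjusted p = 0.129). Both differed between the hairpins (0.88 and 0.94, limma adjusted p = 0.00252 and 0.00498). BCL3, a nuclear IkB protein, rose to 7.17 FPKM with shRNA 1, against 3.29 FPKM in the controls (0.93, limma adjusted p = 0.0172). It averaged 5.87 FPKM with shRNA 2 (0.65, limma adjusted p = 0.0559). The difference of BCL3 between the hairpins did not pass (−0.28, limma adjusted p = 0.335). With shRNA 2, MAP3K14, the kinase NIK of the non-canonical pathway, fell to 2.84 FPKM, against 5.22 FPKM (−0.70, limma adjusted p = 0.0110; 12.3% of its exon bases are shared with an antisense gene), and the adaptors TAB2 and TAB3 rose by 0.59 and 0.61. With shRNA 1, MAP3K14 averaged 5.21 FPKM, and TAB2 and TAB3 had log2 fold changes of 0.03 and −0.22 that did not pass. MAP3K14, TAB2 and TAB3 differed between the hairpins (−0.70, 0.55 and 0.82, limma adjusted p = 0.00993, 0.0345 and 0.0135). The subunit gene RELB had 8.94 FPKM with shRNA 2 and 4.01 FPKM with shRNA 1 (0.99 between hairpins, limma adjusted p = 0.00602).

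Among 20 feedback and adaptor genes 18 were tested, with 1 up and 2 down with shRNA 1 and 2 up and 2 down with shRNA 2, and medians of −0.05 and 0.25. The 3 and 4 of 18 called are near the 19.8% and 18.8% of all genes. The voom fit called 1 up and 3 down with shRNA 1 and 6 up and 2 down with shRNA 2. Over all genes that fit called 25.5% and 24.2%, so the reading for shRNA 2 depended on the fit. MYD88, the adaptor of Toll-like and IL-1 family receptors, IL-18 receptor included, rose with both hairpins, to 12.4 FPKM with shRNA 1 and 9.60 FPKM with shRNA 2, against 6.15 FPKM in the controls (0.90 and 0.56, limma adjusted p = 0.00288 and 0.0137). TRAF2, an adaptor of TNF receptors, fell with both (−0.68 and −0.57). RNF11 and TNIP1 encode partners of the TNFAIP3 product A20. RNF11 fell to 8.37 ± 0.210 FPKM with shRNA 2, against 27.1 ± 0.883 FPKM in the controls (−1.58, limma adjusted p = 0.000191), while TNIP1 rose to 16.3 FPKM, against 8.62 FPKM (0.84, limma adjusted p = 0.00449). With shRNA 1 neither passed (0.28 and −0.07), and both differed between the hairpins (−1.86 and 0.92).

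Of 35 other NF-kB targets (cytokine, adhesion and survival genes), 10 were tested. The cytokine genes IL6 and TNF, both with AU-rich mRNAs, were at no more than 0.0627 and 0.0288 FPKM in any library, and CCL2, CX3CL1, CXCL5 and CXCL6 were listed at 0 throughout. Tested genes of this list rose in 3 cases and fell in 4 with shRNA 1, and rose in 3 and fell in 2 with shRNA 2, with medians of 0.03 and −0.10. The 7 and 5 of 10 called stand beside 19.8% and 18.8% of all genes. Among the falls with shRNA 1, IL23A reached 1 FPKM only in control libraries (1.91 and 2.04 FPKM at 20 mM, 1.43 FPKM in 1 library at 0 mM). Its place among the tested genes is therefore not independent of this difference. LIF, an IL-6 family cytokine gene, rose with both hairpins (0.75 with shRNA 1 and 0.62 with shRNA 2, limma adjusted p = 0.0136 and 0.0257). PLAU, the urokinase gene, rose to 48.2 FPKM with shRNA 1 and 11.4 FPKM with shRNA 2, against 6.70 FPKM (2.68 and 0.68), and IER3, an immediate early survival gene, fell to 155 FPKM with shRNA 1 and 212 FPKM with shRNA 2, against 338 FPKM (−1.12 and −0.67). PLAU and IER3 share 31.1% and 26.5% of their exon bases with genes on the opposite strand, ICAM1, drawn in the plot of pathway genes, shares 23.6% and LIF 6.73%, so they are uncertain to that extent. The same holds for BCL2L1, called lower with shRNA 1, which shares 43.0%. SOD2, called higher with both hairpins, has 2 identifiers, of which 1 was tested. They share 6.93% and 90.5% of their exon bases with each other or with other genes.

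Most receptor genes for the products of the 10 genes, or for cytokines upstream of them, were low. Of 19, 3 were tested, with 1 up with shRNA 1 and 2 up with shRNA 2 (19.8% and 18.8% of all genes were called) and medians of 0.16 and 0.60. CXCR6, the receptor of CXCL16, was at 0.119 to 0.511 FPKM. CXCR1 and CXCR2, the receptors of CXCL8 and of the CXCL1 to CXCL3 chemokines, were at no more than 0.0481 and 0.0810 FPKM. TNFRSF1A, the TNF receptor upstream of NF-kB, rose with both hairpins, to 34.3 ± 3.48 FPKM with shRNA 1 and 31.6 ± 0.374 FPKM with shRNA 2, against 19.1 ± 0.693 FPKM in the controls (0.81 and 0.70, limma adjusted p = 0.00287 and 0.00433). LTBR, the lymphotoxin beta receptor gene, passed with shRNA 2 alone (0.60) and differed between the hairpins (0.44, limma adjusted p = 0.0142), and 6.72% of its exon bases are shared with a gene on the opposite strand.

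Genes that process the products of CXCL16 and IL18 were tested in 7 of 11 cases, with 2 up and 1 down with shRNA 1 and 3 up and 1 down with shRNA 2, and medians of −0.03 and 0.29, beside 19.8% and 18.8% of all genes called. ADAM10, a protease that sheds CXCL16, had 12.4 FPKM with either hairpin, against a control mean of 8.24 FPKM (log2 fold changes 0.54 for shRNA 1 and 0.53 for shRNA 2, limma adjusted p = 0.0300 and 0.0314). ADAM17, a related protease, rose with shRNA 2 alone (0.48) and differed between the hairpins (0.51, limma adjusted p = 0.0182). CASP1, which cleaves the IL-18 precursor, was listed at 0 in all libraries. CASP4, which can also cleave it, rose to 2.25 FPKM with shRNA 1 and 2.47 FPKM with shRNA 2, against 1.32 FPKM (0.49 and 0.59), and IL18BP, the secreted inhibitor of IL-18, fell to 2.68 FPKM with shRNA 1 and 2.56 FPKM with shRNA 2, against 3.88 FPKM (−0.41 and −0.46). IL18BP and ADAM17 share 15.6% and 13.6% of their exon bases with genes on the opposite strand and are uncertain to that extent.

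While PTGS2 was too low to test, 7 of 14 other genes of the prostaglandin pathway were tested, with 1 up and 0 down with shRNA 1, 0 up and 2 down with shRNA 2 and medians of 0.06 and −0.20, beside 19.8% and 18.8% of all genes called. PTGES, the prostaglandin E synthase that acts on the product of PTGS2, rose to 27.1 ± 1.71 FPKM with shRNA 1, against 7.61 ± 0.788 FPKM in the controls (1.71, limma adjusted p = 0.000883). With shRNA 2 it fell to 5.03 ± 0.956 FPKM (−0.52, limma adjusted p = 0.0388), so the hairpins differed in sign, by −2.23 (limma adjusted p = 0.000330). AKR1B1, an aldo-keto reductase, fell to 4.67 FPKM with shRNA 2, against 9.95 FPKM (−0.95). With shRNA 1 it averaged 10.8 FPKM (0.10, limma adjusted p = 0.626), and the hairpins differed by −1.05 (limma adjusted p = 0.00257).

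All 13 genes of AU-rich element binding and decay were tested, with 1 up and 2 down with shRNA 1 and 0 up and 3 down with shRNA 2, and medians of −0.04 in both. The 3 of 13 called with each hairpin are near the 19.8% and 18.8% of all genes. ZFP36 fell to 24.9 ± 0.532 FPKM with shRNA 1, against 35.2 ± 0.285 FPKM (−0.49, limma adjusted p = 0.0108), and had 34.3 FPKM with shRNA 2 (−0.04, limma adjusted p = 0.794). Its relative ZFP36L2 had 30.4 FPKM with shRNA 1 (0.09) and fell to 15.7 FPKM with shRNA 2, against 28.6 FPKM (−0.83, limma adjusted p = 0.00675). On the p38 axis 8 of 9 genes were tested, with 0 up and 2 down with shRNA 1 and 3 up and 1 down with shRNA 2, and medians of −0.21 and 0.30, beside 19.8% and 18.8% of all genes called. The targeted gene MAPKAPK2 is among the genes that fell with each hairpin. MAPKAPK3, the gene of the closely related kinase MK3, rose with shRNA 2 (0.48, limma adjusted p = 0.0147) and had a log2 fold change of 0.29 with shRNA 1 (limma adjusted p = 0.0732). At 0 mM glucose limma called 0 genes in any of these lists, as it did over all genes.

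**Figure D5:**
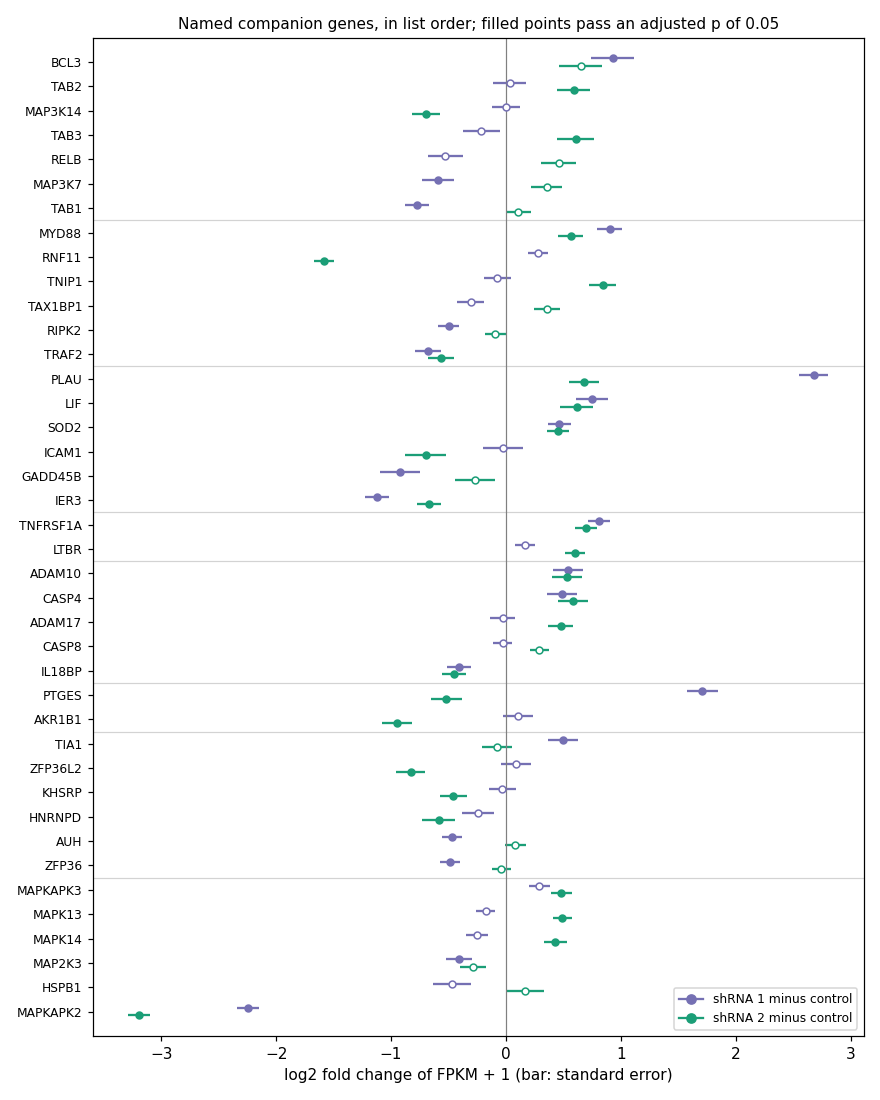
Log2 fold changes of FPKM + 1 with standard errors for shRNA 1 (purple) and shRNA 2 (green) against the 20 mM controls, for the genes of the surrounding pathway chosen by the naming rule; grey lines part the lists and filled points pass an adjusted p of 0.05. PLAU at 2.68 and PTGES at 1.71 with shRNA 1, RNF11 at −1.58 with shRNA 2 and MAPKAPK2 at −2.24 and −3.20 stand farthest from 0; SOD2 has 2 identifiers under 1 symbol, and the tested one is drawn.

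The genes whose pattern over the 8 libraries was most like that of the 3 highest genes were found by Pearson's r of log2(FPKM + 1) among 11445 other protein-coding genes. For CXCL16 they were ABCC10 (r = 0.988), WWOX (0.986) and GPR173 (0.982). For NFKBIA they were COL18A1 (0.986), PHLDA3 (0.984) and KIAA0895L (0.981), and for IL18 they were PALB2 (0.984), TNFRSF13C (0.971) and ILDR1 (0.961). These are the highest of many values over 8 libraries that share groups and depth, and are given as a description.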

How the data were processed

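RNA of HCT116 cells was sequenced in 8 libraries of 4 groups, taken from the labels. Per the labels' protocols cDNA was primed with random hexamers, by a directional or a non-directional protocol, without saying which. featureCounts 1.5.0-p3, HISAT2 2.0.5 and DESeq2 1.20.0 are named per the submitters' processing notes, with no role, and counting options are not stated there. The authors deposited 1 table of FPKM per gene and library, whose identifiers, positions and exon lengths match GENCODE 29 (GRCh38) for all 58735 genes. FPKM times exon length gave whole reads for 100% of values, within 0.001 of a step or, for large counts, a tolerance that widened with the count. These reads sum to 0.932 to 1.05 times the authors' library size.

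Genes with at least 1 FPKM in at least 2 libraries (16239) were fitted as log2(FPKM + 1) with limma 3.58.1 in R 4.3.3, with 4 group means, an intensity trend and Benjamini-Hochberg adjustment over all genes (threshold 0.05). Alternatives were pseudocount 0.1, no filter, a stricter filter, quantile normalization, limma voom on recovered reads, a replicate block, the 2 groups alone, protein-coding genes alone and each library left out. Ratios of reads carry exact 95% Clopper-Pearson intervals and levels exact 95% Poisson intervals; both cover counting error only. The fits were also run on simulated reads with known changes and the same spread in every group. The spread within the real groups was unequal, so that run does not show how the fits perform on these libraries. All 10 genes are named; from each companion list at most 4 genes per comparison, those past the threshold with the smallest p, plus MAPKAPK2, MAPKAPK3, MAPK14 and ZFP36. The genes under 1 FPKM that the text names to show which cytokines, receptors and caspases were near 0 were chosen after their values were seen. IL23A and BCL2L1 are named beyond the naming rule, for a limit of their calls. The 10 genes and the lists were chosen with earlier results of these data known. Sequences come from GENCODE 29 transcripts and RefSeq promoters (GRCh38.p14).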

Additional observations from a re-analysis of the deposited data

Results flagged for a closer look

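CXCL16 and NFKBIA were the 2 genes whose response differed between the hairpins by a test of the difference itself. For CXCL16 the log2 fold change of shRNA 2 over shRNA 1 was −0.51, with shRNA 2 libraries at 22.9 and 22.7 FPKM, shRNA 1 libraries at 33.2 and 32.4 FPKM and controls at 26.0 and 25.7 FPKM between them. For NFKBIA it was −0.50, with shRNA 2 libraries at 9.63 and 7.20 FPKM, shRNA 1 libraries at 12.2 and 12.3 FPKM and controls at 10.9 and 9.87 FPKM. A difference between the hairpins was called for 22.2% of all genes tested, so it is common in these data, and no cause was tested.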

How the results depend on the processing

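Of 316 fold changes of single genes under the alternatives, 290 kept their direction and their side of the threshold, 17 lost a call, 3 gained one and 6 changed sign. For glucose, calls over all genes numbered 0 in the reported fit, 6 with no filter, 28 in the voom fit, 8 with protein-coding genes alone and 0 to 1 with a library left out. For shRNA 1 they numbered 3222, and 942 to 4054 with a library left out; calls among the 10 genes numbered 1, then 0 with no filter, 2 in the voom fit, 2 with protein-coding genes alone and 0 to 1 with a library left out. For shRNA 2 they numbered 3055, then 961 with the 2 groups alone and 1015 to 3026 with a library left out; among the 10 genes they numbered 0, and 0 to 1 with a library left out. Between hairpins they numbered 3602, then 1136 with the 2 groups alone and 1335 to 3473 with a library left out; among the 10 genes they numbered 2, then 1 with no filter, 0 with the 2 groups alone and 0 to 2 with a library left out. The fold changes that changed sign, each with a library left out, were NFKBIA for glucose (range −0.051 to 0.12; also −0.029), TNFAIP3 for glucose (−0.084 to 0.011), IL18 with shRNA 1 (−0.093 to 0.099; also −0.028) and IL32 with shRNA 1 (−0.13 to 0.033). Fewer libraries give fewer degrees of freedom; otherwise the cause was not tested. Besides NFKBIA and IL32 with shRNA 2 and NFKBIA between hairpins, described with those comparisons, values that kept their sign and moved by over 1.5 times without 1 library were those of CXCL16 for glucose (0.068 to 0.26), IL18 for glucose (0.081 to 0.29) and with shRNA 2 (−0.31 to −0.12), TNFAIP3 with shRNA 2 (0.048 to 0.16) and IL32 between hairpins (0.11 to 0.31). TNFAIP3 was removed by the stricter filter and has no value there.

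The differences between replicates 1 and 2 correlated weakly between groups, with r of −0.0295 to 0.179, highest between 0 mM glucose and shRNA 2. These values do not settle whether the numbers pair libraries, and the reported fit had no replicate block. With the replicate block, calls among the 10 genes stayed at 0 for glucose, 1 with shRNA 1, 0 with shRNA 2 and 2 between hairpins, and calls over all genes numbered 0, 3470, 3332 and 3806. With 2 libraries per group and 1 to 24 reads per library in the 5 low genes, changes of these genes smaller than their intervals cannot be seen.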
